A study of Rattus norvegicus with 24 samples.

Results

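The genes described here carry glucose into cells and lactate and pyruvate across cell membranes: the glucose transporters Slc2a1 and Slc2a3, the monocarboxylate transporters Slc16a1 and Slc16a7, and Bsg (basigin), the membrane protein that brings several monocarboxylate transporters to the cell surface. They are 5 of the 14217 genes that have a probe set with exactly 1 gene symbol, and they were chosen by name. The lower level of Slc16a1 in aged pachytene fractions was already known when the genes were listed, so that comparison of Slc16a1 is given as a description with no test. All 7 probe sets of the 5 genes are reported, with 2 each for Slc2a3 and Slc16a1 and 1 each for the other genes, and none was removed by a filter on low values.

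RNA was measured on Affymetrix arrays, on which each gene is read by a probe set, in germ cells of Brown Norway rats, a strain used as a model of male reproductive ageing. Round spermatids of aged rats (18 months), round spermatids of young rats (4 months), pachytene spermatocytes of aged rats (18 months) and pachytene spermatocytes of young rats (4 months) gave 6 arrays each. The numbers in the labels join both fractions of each of 12 rats, and the labels name no treatment and no engineered allele. Cells came from an enzyme digest of the testis and a sedimentation gradient, so each array holds a cell fraction for which the labels give a minimum purity. A lower signal can come from fewer cells of a type or from less RNA per cell, which cannot be told apart here.

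Germ cells that have passed the blood-testis barrier depend on Sertoli cells for fuel. Sertoli cells take up glucose, for which SLC2A1 (GLUT1) is their main route, turn much of it into lactate and release it, and spermatocytes and spermatids take up that lactate, oxidise it and also express the high-affinity glucose transporter SLC2A3 (GLUT3). SLC16A1 (MCT1) and SLC16A7 (MCT2) move lactate, pyruvate and ketone bodies together with a proton; SLC16A7 has the higher affinity for its substrates and is the form known from spermatids and the sperm tail, while SLC16A1 depends on basigin to reach the membrane and SLC16A7 can use the related protein embigin.

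RefSeq places Slc2a1 on chr5:138002522-138030742, Slc2a3 on chr4:157632887-157698034, Slc16a1 on chr2:194805556-194832966, Slc16a7 on chr7:62929067-63096995 and Bsg on chr7:10643788-10651005 of the rat assembly GRCr8. The promoters of the 2 lactate transporters are shown because these genes lay on opposite sides of the step between the cell types while both were lower in aged pachytene fractions. Each sequence runs 5′ to 3′ on the strand of its gene, from 250 bases before the RefSeq start to 50 after it, and is credited to RefSeq (GRCr8). Capitals mark a CRE half-site (TGACG, which reads CGTCA on the other strand), a GC box (GGGCGG, or CCGCCC on the other strand) or an E-box (CACGTG, the same on both strands), each searched on both strands.
Slc16a1, chr2:194812410-194812709, plus strand: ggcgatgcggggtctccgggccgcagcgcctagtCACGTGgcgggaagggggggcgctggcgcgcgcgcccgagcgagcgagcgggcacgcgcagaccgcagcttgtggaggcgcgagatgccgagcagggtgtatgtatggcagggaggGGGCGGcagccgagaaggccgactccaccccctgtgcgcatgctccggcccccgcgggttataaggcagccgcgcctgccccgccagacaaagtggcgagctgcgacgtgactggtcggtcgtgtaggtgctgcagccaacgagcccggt
Slc16a7, chr7:63040349-63040648, minus strand: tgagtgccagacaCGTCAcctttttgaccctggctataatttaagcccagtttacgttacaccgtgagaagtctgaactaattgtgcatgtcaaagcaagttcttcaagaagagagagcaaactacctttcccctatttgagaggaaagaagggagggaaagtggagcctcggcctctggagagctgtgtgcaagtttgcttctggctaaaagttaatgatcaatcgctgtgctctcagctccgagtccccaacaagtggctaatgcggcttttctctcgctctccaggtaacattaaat
Both windows lie inside the span annotated for their gene. The Slc16a1 window had 72.7% G and C, held 1 GC box and 1 E-box and no CRE half-site. The Slc16a7 window had 46.7% G and C, against a median of 51.7% over 33469 promoters of the same length, and held 1 CRE half-site and neither a GC box nor an E-box. Of those promoters 21.2% held a CRE half-site, 33.1% a GC box and 6.42% an E-box, and no 2 marked matches overlap. The windows of Slc2a1 and Bsg had 68.3% and 69.0% G and C, with 3 and 2 GC boxes.

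The fractions carried the markers of their labels. Of 13 measured pachytene spermatocyte markers 12 were lower and 1 higher in round spermatids than in pachytene spermatocytes, and of 10 round spermatid markers 9 were higher and 1 lower. Of 21 Sertoli cell markers 17 were lower and 4 higher in round spermatids, and of 10 Leydig cell markers 7 were lower and 1 higher. Of all genes 49.7% were higher and 38.6% lower in round spermatids. Markers mostly higher there were those of late spermatids (13 of 13), macrophages (13 of 14), spermatogonia (7 of 10, with 2 lower) and peritubular cells (6 of 8, with 1 lower). Erythroid markers (3 of 6 higher, 1 lower) and endothelial markers (4 of 9 each way) were not mostly higher. The part of these cells in the cell type differences of the transporters was not tested. Late spermatid, round spermatid and Sertoli cell markers were also above the average gene in the pachytene fractions. List means relative to all genes there were 4.53 to 6.05 for late spermatid, 2.72 to 4.09 for round spermatid and 3.62 to 4.20 for pachytene markers. In round spermatid fractions the means of pachytene markers were 2.00 to 2.64. Pachytene arrays of young rats 1, 10 and 11 stood apart from the others on the first principal component, at -86.3, -47.1 and -44.0, against -7.38 to 39.6 in the other 9 rats. As these 3 rats were picked on the same arrays, a p-value without them is a description only. Results are given with and without these 3 rats where leaving them out ends a call or moves a value by over 1.5 times. For some the values of single rats are given instead. The same 3 rats were left out of the round spermatid comparison, although on its first component only the array of young rat 10 stood far off, at -40.7, while young rats 11 and 1 lay at -18.7 and -9.81 and the other 9 rats at -13.9 to 21.3. Values are log2 signals, so 1 unit is a 2-fold difference. Age was compared on arrays set to 1 common distribution within each cell type, and cell types on a common distribution of all 24 arrays after an offset for the different background of the pachytene arrays; levels from these 2 scales are not set against each other. On the deposited scale an absent-transcript control averaged 6.83 on round spermatid arrays and 4.28 on pachytene arrays, so folds of probe sets near these levels understate a difference in transcript.

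Round spermatids held less Slc2a3 and less Slc16a1 than pachytene spermatocytes and more Slc16a7, while Slc2a1 and Bsg differed by at most 1.15-fold. By the fit across all probe sets (limma, Benjamini-Hochberg adjusted p under 0.05), 3 of the 7 probe sets were higher and 4 lower in round spermatids, where 46.9% of all probe sets were higher and 38.3% lower. As 85.1% of all probe sets differed between the cell types, a count of calls says little about these genes; their median difference was -0.20 and that of all probe sets 0.03.

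Slc2a3, the high-affinity glucose transporter, was read by probe set 1372326_at at 12.54, 12.65 and 13.03 (lowest, median and highest of 6) in aged round spermatids and 10.98, 11.69 and 12.14 in young ones, and at 14.19, 14.26 and 14.27 in aged pachytene spermatocytes and 13.32, 14.02 and 14.20 in young ones. All 12 round spermatid arrays lay below all 12 pachytene arrays. The difference was -1.90 (SE 0.12, n = 12 arrays per cell type), a 3.72-fold lower level in round spermatids (adjusted p = 3.89e-13). The other Slc2a3 probe set, 1387707_at, gave -1.39 (SE 0.18, 2.61-fold lower), but its young pachytene arrays (8.45 to 10.21) overlapped both round spermatid groups. The lowest of those young pachytene arrays belonged to rats 1, 10 and 11, and without them the difference was -1.64. Slc2a1, the transporter of the basal uptake of glucose in many cells, differed by -0.20 (SE 0.02, 1.15-fold lower in round spermatids), with medians of 8.24 in aged and 8.31 in young round spermatids and of 8.45 in aged and 8.43 in young pachytene spermatocytes.

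Slc16a1 showed the steepest step of the 7 probe sets. Its probe set 1386981_at read 7.52, 7.72 and 7.88 in aged round spermatids and 7.87, 8.33 and 8.68 in young ones, against 9.43, 9.68 and 9.90 in aged pachytene spermatocytes and 10.12, 10.72 and 11.57 in young ones. The 2 cell types did not overlap, and the difference was -2.22 (SE 0.13, 4.65-fold lower in round spermatids, adjusted p = 1.24e-13). This probe set and Slc2a3 1372326_at were the 2 of 7 whose arrays were apart in this direction, which held for 20.0% of all probe sets; none of the 7 was apart in the other direction, which held for 25.6%. The second Slc16a1 probe set, 1380467_at, which is annotated to an expressed sequence tag, went the other way by 0.16 (SE 0.02), with all 24 arrays between 7.49 and 7.85. The 2 probe sets of Slc16a1 therefore disagree, and the call of 1380467_at was lost with arrays centred on hybridization controls (0.08, adjusted p = 0.196).

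Slc16a7 (1370609_a_at) was the transporter with a severalfold higher level in round spermatids. It read 13.08, 13.29 and 13.46 in aged round spermatids and 13.28, 13.49 and 13.61 in young ones, against 10.43, 10.68 and 11.36 in aged pachytene spermatocytes and 11.42, 12.25 and 13.78 in young ones. Every aged pachytene array lay below every round spermatid array, while the young pachytene arrays reached into the range of round spermatids. The difference was 1.78 (SE 0.20, 3.43-fold higher in round spermatids, adjusted p = 1.58e-08), and 2.15 without young rats 1, 10 and 11. It was 2.52 in aged rats and 1.04 in young rats taken alone. Bsg, their partner at the membrane, ranged from 12.25 to 12.54 over all 24 arrays and differed by 0.09 (SE 0.02, adjusted p = 0.00118), a call lost in aged rats alone (adjusted p = 0.0618), with hybridization controls (0.102) and without young rats 1, 10 and 11 (0.0664).

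**Figure D1:**
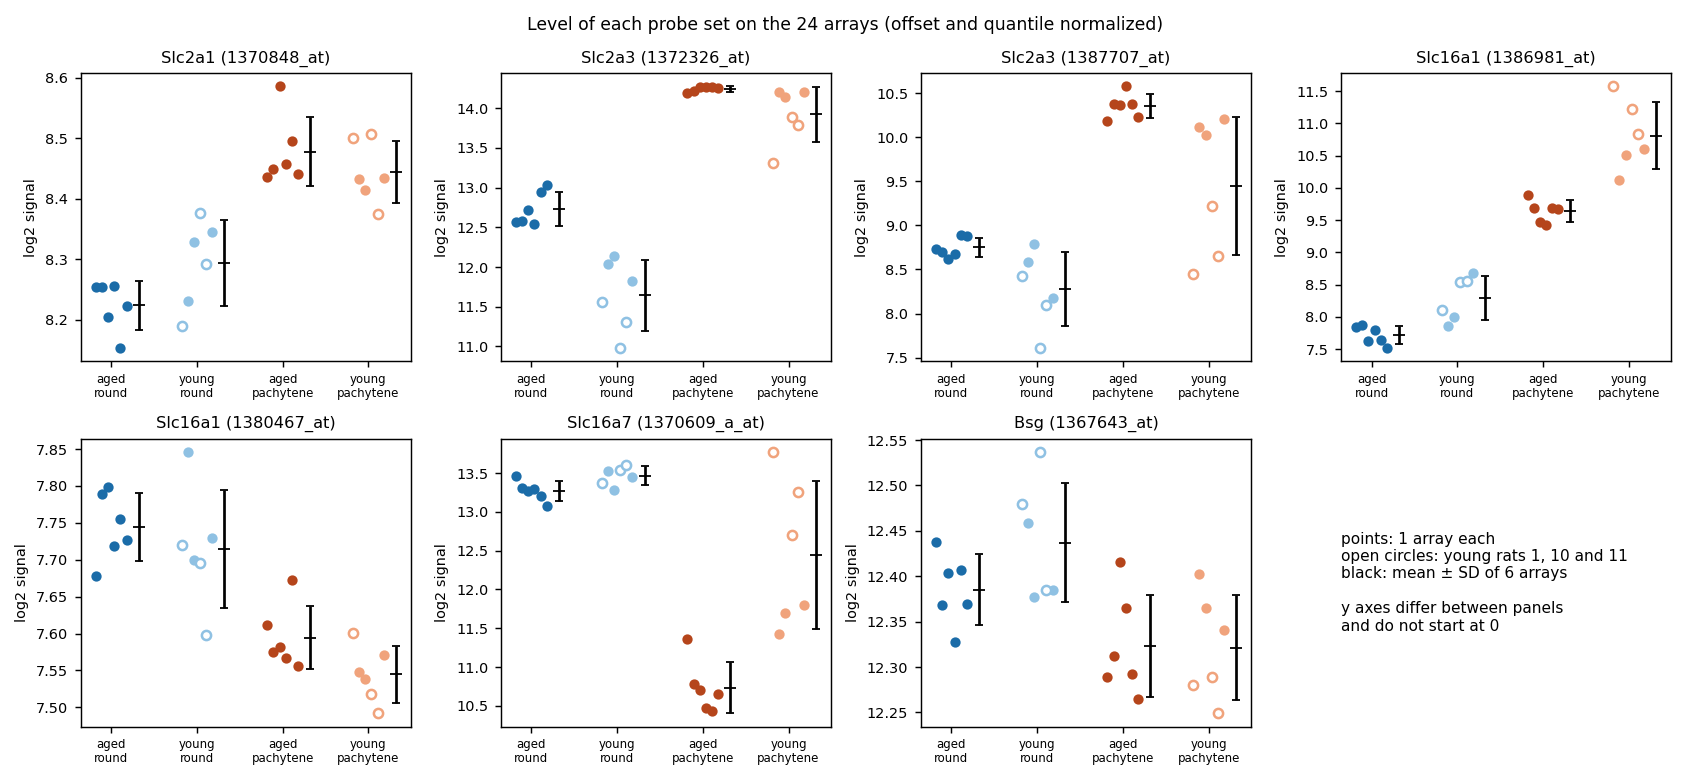
Level of each of the 7 probe sets (log2 signal, vertical axis, with its own range in each panel) on 24 arrays after the offset and quantile normalization, by group. Points are arrays, open circles are young rats 1, 10 and 11, and black bars are the mean ± SD of 6 arrays. Slc16a1 1386981_at was higher in both pachytene groups than in both round spermatid groups, while all aged pachytene arrays of Slc16a7 (at most 11.36) lay below all round spermatid arrays (at least 13.08).

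The order of the groups differed between the transporters. For Slc2a3 1372326_at the order was aged pachytene, young pachytene, aged round, young round, and the only neighbours whose arrays overlapped were the 2 pachytene groups. For Slc16a1 1386981_at it was young pachytene, aged pachytene, young round, aged round, with overlap between the 2 round spermatid groups only. For Slc16a7 it was young round, aged round, young pachytene, aged pachytene, and the arrays were apart only in the last step. Neighbouring groups overlapped at every step for Slc2a1, for Bsg, for Slc2a3 1387707_at and for Slc16a1 1380467_at.

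In pachytene spermatocytes of aged rats, both lactate transporters were lower than in young rats and Slc2a3 was higher by 1 of its 2 probe sets. Slc2a1 and Bsg showed no difference past the threshold as reported, but each was called on at least 1 other scale. Of the 7 probe sets 1 was higher and 2 were lower, 1 of these being the Slc16a1 probe set whose result was known beforehand, where 22.1% of all probe sets were higher and 15.4% lower (37.5% in either direction). The median difference of the 7 was 0.05 and that of all probe sets 0.05. The 3 calls among 7 stand beside 37.5% over the array, so the count alone shows nothing particular to these genes. Without young rats 1, 10 and 11 the count was 0 higher and 2 lower.

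Slc16a7 read 10.58, 10.82 and 11.43 in aged pachytene fractions and 11.48, 12.22 and 13.72 in young ones. All 6 aged rats lay below all 6 young rats, and within the young rats the 3 that stood apart were highest, with 13.72 in rat 1, 12.62 in rat 10 and 13.18 in rat 11. The age difference was -1.56 (SE 0.34, 2.95-fold lower in aged rats, adjusted p = 0.00445). Without the 3 rats it was -0.82 (adjusted p = 0.00348), and the remaining young rats spread less, so this p adds no support. Slc16a1 1386981_at read 9.57, 9.84 and 10.07 in aged fractions and 10.29, 10.85 and 11.62 in young ones, also with all aged rats below all young rats. That is a 2.19-fold lower level (-1.13, SE 0.19; -0.79 without the 3 rats). Groups were apart in this direction for 2 of the 7 probe sets, Slc16a7 and Slc16a1, and for 8.08% of all probe sets. As the result of Slc16a1 was known beforehand, this count is a description only. The second Slc16a1 probe set, 1380467_at, differed by 0.11 (95% interval -0.01 to 0.24), and on the deposited scale its sign turned (-0.25) and it was called lower.

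For Slc2a3, 1387707_at read 10.35, 10.53 and 10.72 in aged pachytene fractions and 8.28, 9.77 and 10.38 in young ones. The aged rats were close together, while young rats 1, 10 and 11 were low (8.28, 9.33 and 8.58) and the other 3 young rats lay at 10.20 to 10.38, near the aged ones. The difference was 1.003 (SE 0.33, 2-fold higher in aged rats, adjusted p = 0.0313), and it was 0.23 without those 3 rats (adjusted p = 0.0517). The call also ended when young rat 10, young rat 11 or aged rat 3, 5, 8 or 9 was left out alone (adjusted p = 0.0529 to 0.0648). The brighter probe set, 1372326_at, read 14.13, 14.20 and 14.21 in aged and 13.24, 13.96 and 14.14 in young fractions, a difference of 0.32 (95% interval 0.04 to 0.60, adjusted p = 0.0666). Its signals in aged fractions lay at the 99.8th percentile of the array, and whether saturation limited them was not tested. In 1372326_at too, young rats 1, 10 and 11 were lowest, at 13.24, 13.84 and 13.73. Young rats 2, 3 and 13 read 14.14, 14.08 and 14.14, near the aged ones, and 1372326_at was not called without the 3 low rats. Other settings gave this probe set a call by limma, as with hybridization controls (0.42, adjusted p = 0.0265) and median centring (0.68, 0.00684).

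Slc2a1 read 8.26, 8.29 and 8.49 in aged and 8.16, 8.26 and 8.37 in young pachytene fractions. The difference of 0.05 (95% interval -0.07 to 0.17) was not past the threshold (adjusted p = 0.486), and it turned to -0.39 with the values as deposited and to -0.27 with hybridization controls, scales on which the median of all probe sets was itself -0.24 and -0.12. On both of these scales Slc2a1 was called lower in aged rats. Bsg read 12.23, 12.26 and 12.37 in aged and 12.21, 12.27 and 12.35 in young fractions, with an interval of -0.09 to 0.10 around a difference of 0.00; with median centring, where the median of all probe sets was 0.13, it was 0.31 (adjusted p = 0.00978).

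Markers of other cells moved with these differences. Of all genes 25.5% were higher and 18.9% lower in aged pachytene fractions. In aged pachytene fractions 18 of 21 Sertoli cell markers were lower and 1 higher, and the mean of the list relative to all genes was 0.79 to 1.07 in aged rats and 1.49 to 2.13 in young rats. Late spermatid markers were lower for 12 of 13, with list means of 4.53 to 5.07 in aged and 4.95 to 6.05 in young rats. Round spermatid markers were lower for 5 of 10 and higher for none (2.72 to 3.11 in aged, 2.94 to 4.09 in young rats). Pachytene markers were higher for 5 of 13 and lower for 2 (4.10 to 4.20 in aged, 3.62 to 4.13 in young rats). Young rats 1, 10 and 11 had the highest late spermatid and round spermatid levels and the lowest pachytene levels of the 12 fractions, and they had the highest Slc16a7 and Slc16a1 and the lowest Slc2a3. The part of these other cells in the transporter differences was not tested. Markers of Leydig cells (4 of 10 lower), peritubular cells (2 of 8 higher, 2 lower), macrophages (2 of 14 higher, 3 lower), endothelial cells (1 of 9 higher), erythroid cells (2 of 6 each way) and spermatogonia (2 of 10 lower) were below the average gene in nearly all pachytene fractions.

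**Figure D2:**
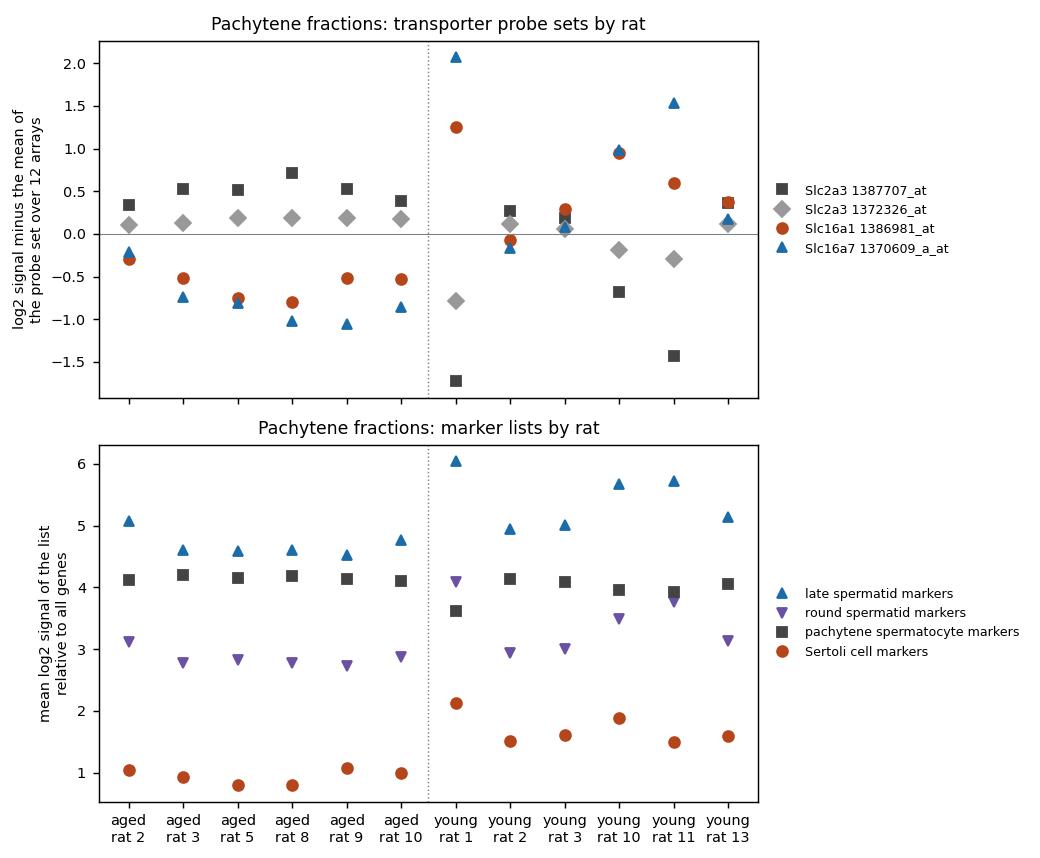
The 12 pachytene fractions by rat, aged rats on the left and young rats on the right. The upper panel shows 4 transporter probe sets as log2 signal minus the mean of that probe set over the 12 arrays, and the lower panel shows the mean log2 signal of 4 marker lists relative to all genes. Young rats 1, 10 and 11 have high Slc16a7 and Slc16a1, low Slc2a3 and high spermatid markers, and Sertoli cell markers are lower in all 6 aged rats (at most 1.07) than in any young rat (at least 1.49).

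In round spermatids of aged rats, Slc2a3 was higher than in young rats by both probe sets and Slc16a1 was lower, while Slc2a1, Slc16a7 and Bsg did not pass the threshold. This made 2 of the 7 probe sets higher and 1 lower, where 8.65% of all probe sets were higher and 8.48% lower (17.1% in either direction). The median difference of the 7 was -0.05, and that of all probe sets was 0.00. Without young rats 1, 10 and 11, 1 probe set was higher and 0 were lower; 1716 of all probe sets were then called by limma, against 5316 with them.

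The leading difference was that of Slc2a3 1372326_at. It read 12.59, 12.70 and 13.10 in aged round spermatids and 10.81, 11.62 and 12.14 in young ones, and every aged rat lay above every young rat. This was the only 1 of the 7 probe sets whose groups were apart in round spermatids, which held in the higher direction for 4.32% of all probe sets and in the lower one for 3.60%. The difference was 1.22 (SE 0.20, n = 6 per age, 2.33-fold higher in aged rats, adjusted p = 0.00238), between 1.05, without young rat 10, and 1.33 with any 1 rat left out, and 0.79 without young rats 1, 10 and 11 (adjusted p = 0.0153). The second probe set, 1387707_at, read 8.38, 8.46 and 8.61 in aged and 7.60, 8.13 and 8.52 in young rats, which overlapped. Its difference of 0.37 (SE 0.12, 1.29-fold, adjusted p = 0.0485) was just past the threshold, and it was no longer called under median centring (adjusted p = 0.0714), without young rats 1, 10 and 11 (0.19, 0.274), or without any 1 of young rats 1, 11 and 13 and each of the 6 aged rats (0.0615 to 0.107).

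Slc16a1 1386981_at read 7.53, 7.69 and 7.81 in aged round spermatids and 7.81, 8.16 and 8.43 in young ones. The groups overlapped only at their edges, and the difference was -0.44 (SE 0.10, 1.36-fold lower in aged rats, adjusted p = 0.0102). It kept its sign but not its call with hybridization controls (-0.26, adjusted p = 0.0567) and without young rats 1, 10 and 11 (-0.36, 0.0888). The other probe set of this gene, 1380467_at, differed by 0.02 (95% interval -0.05 to 0.09). In aged round spermatids both were dim, at median percentiles of the array of 49.5 (1386981_at) and 50.2 (1380467_at). Deposited values of 1386981_at there were 7.55 to 7.93, against 6.90 for the absent-transcript control of that group. Slc16a7 read 13.14, 13.35 and 13.52 in aged and 13.34, 13.55 and 13.67 in young rats, a difference of -0.19 (95% interval -0.33 to -0.05, adjusted p = 0.0559) that missed the threshold; without young rat 3, without aged rat 2 or without the 40% dimmest probe sets it passed (adjusted p = 0.0165, 0.0223 and 0.0439). Slc2a1 differed by -0.05 (95% interval -0.12 to 0.01) and Bsg by -0.06 (-0.13 to 0.02), with adjusted p = 0.267 and 0.332.

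Marker lists moved in round spermatid fractions as well, where 12.5% of all genes were higher and 12.4% lower in aged rats. Pachytene markers were higher in aged rats for 5 of 13 and lower for none, with list means of 2.40 to 2.64 in aged and 2.00 to 2.37 in young rats. Sertoli cell markers were lower for 11 of 21 and higher for none, with means of -0.74 to -0.49 in aged and -0.44 to -0.04 in young rats. Slc2a3 was higher in pachytene than in round fractions, as these pachytene markers were, and the part of pachytene cells in its age difference was not tested. Late spermatid markers were lower for 3 of 13 and round spermatid markers for 2 of 10, and neither list had a higher member.

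**Figure D3:**
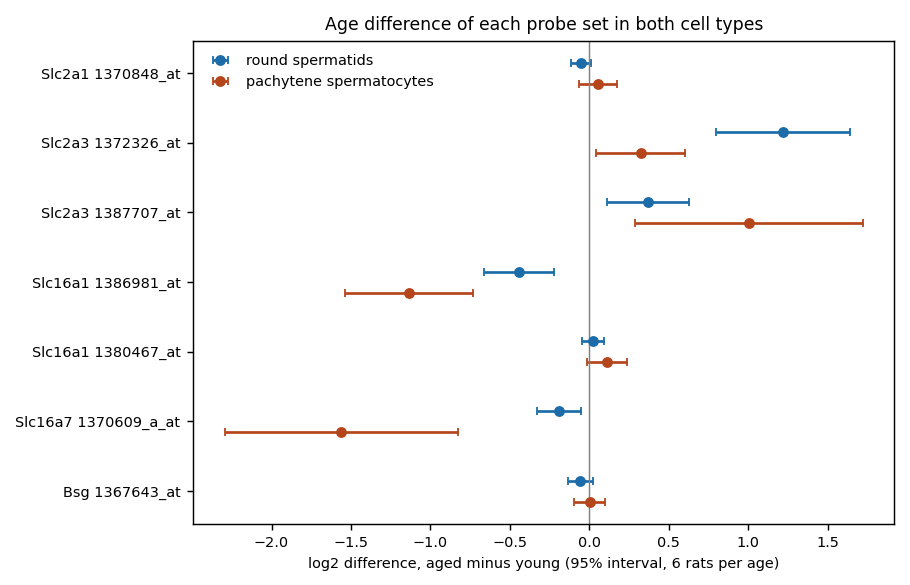
Age difference of each probe set (log2, aged minus young, horizontal axis) in round spermatids (blue) and pachytene spermatocytes (red). Points are the estimates and bars the 95% intervals, with 6 rats per age. The 2 Slc2a3 probe sets lie to the right of 0 in both cell types, Slc16a1 1386981_at to the left in both, and Slc16a7 has its large difference in pachytene spermatocytes (-1.56) against -0.19 in round spermatids.

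Whether the age difference itself differed between the cell types was tested over all 24 arrays, as the age difference in round spermatids minus that in pachytene spermatocytes. Of the 7 probe sets 2 were higher and 0 lower in this comparison, where 5.98% of all probe sets were higher and 7.04% lower; the median was -0.02 over the 7 and over all. For Slc16a7 the 2 age differences were -0.19 in round spermatids and -1.71 in pachytene spermatocytes on this scale, apart by 1.51 (SE 0.40, adjusted p = 0.0151). Leaving out any 1 rat kept that call (1.23 to 1.73), and without young rats 1, 10 and 11 it was 0.75 (adjusted p = 0.0307). For Slc2a3 the 2 probe sets disagreed. By limma 1372326_at had the larger age difference in round spermatids (0.77, SE 0.23, adjusted p = 0.0331). Whether saturation limited its pachytene signals, and so its age difference there, was not tested. The other, 1387707_at, gave -0.44 (95% interval -1.16 to 0.29, adjusted p = 0.441). Its pachytene arrays of young rats 1, 10 and 11 read 8.45, 9.22 and 8.65 on this scale. Those of young rats 2, 3 and 13 read 10.11, 10.03 and 10.21, so -0.44 depends on which young rats are used. The call of 1372326_at did not hold under median centring (adjusted p = 0.0771) and without any 1 of young rats 10 and 11 and the 6 aged rats (0.641 to 0.812, adjusted p = 0.0503 to 0.0737). Slc16a1 1386981_at, whose age difference in pachytene spermatocytes was known, is described only: the 2 differences were apart by 0.59 (SE 0.26). Its pachytene arrays of young rats 1, 10 and 11 read 11.57, 11.23 and 10.84. Those of young rats 2, 3 and 13 read 10.12, 10.51 and 10.60. Slc2a1 and Bsg differed by -0.10 and -0.05 and were not past the threshold (adjusted p = 0.151 and 0.483), with Slc2a1 at 0.38 with the values as deposited and 0.31 with hybridization controls, scales that put the median of all probe sets at 0.26 and 0.19. On both of those scales Slc2a1 was called higher in this comparison.

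Around these 5 genes, 60 other genes of sugar and lactate transport and use were listed, of which 44 were measured, each by its brightest probe set. In aged pachytene fractions 6 of the 44 were higher and 12 lower, where 25.5% of all genes were higher and 18.9% lower. The median of the 44 was 0.06 and that of all genes 0.05. Without young rats 1, 10 and 11 the counts were 6 and 9, and on the deposited scale 3 and 24.

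Both other chaperones of monocarboxylate transporters were lower in aged pachytene fractions. Emb (embigin) averaged 9.32 ± 0.21 in aged and 10.30 ± 0.38 in young rats (SD, n = 6 each; 1.97-fold lower, adjusted p = 0.00101), and Nptn (neuroplastin) 8.77 ± 0.20 in aged and 9.76 ± 0.41 in young rats (2-fold lower, 0.00117). Of 14 genes of lactate dehydrogenase and pyruvate entry 5 were lower and none higher. Ldhb, the dehydrogenase subunit that favours the use of lactate, averaged 10.91 ± 0.21 in aged and 12.13 ± 0.31 in young rats (2.32-fold lower, adjusted p = 0.000274). Pdk1 and Pdk3, kinases that switch off pyruvate dehydrogenase, were lower by 2-fold and 2.01-fold. On the log2 scale Pdk3 was at -1.01, and without young rats 1, 10 and 11 Pdk1 and Pdk3 were at -0.54 and -0.46. By contrast, the testis subunit Ldhc was at 14.71 ± 0.02 in aged and 14.63 ± 0.10 in young rats and was not called. Mpc2, a subunit of the pyruvate carrier of mitochondria, was lower by a small step (-0.21), which turned to 0.16 with median centring. Its call was lost without young rats 1, 10 and 11 (adjusted p = 0.238), with hybridization controls (-0.096, 0.344) and without young rat 10 or 11 or aged rat 5 or 9 alone (0.051 to 0.0563).

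Other SLC families were split. Of 7 other facilitative transporters 2 were higher in aged pachytene fractions and none lower: Slc2a8 (0.68, SE 0.15, and 0.32 without the 3 rats), an intracellular hexose transporter abundant in testis, and Slc2a13 (0.51, and 0.32 without them), a proton-coupled inositol transporter, not called on either the deposited scale (adjusted p = 0.355) or that of the hybridization controls (0.108). Of 7 other monocarboxylate transporters 2 were higher and 1 lower. Slc16a9, a carrier of carnitine and urate, was 1.72-fold higher (8.55 ± 0.11 in aged, 7.77 ± 0.36 in young rats), a difference of 0.79 that was 0.49 without the 3 rats and 0.37 as deposited. Slc16a3, the exporter of lactate in glycolytic cells, was higher by 0.22, but its sign turned to -0.18 with the values as deposited and to -0.062 with hybridization controls, and the call was lost without the 3 rats (adjusted p = 0.0531). Slc16a6 was lower (-0.54), not called under median centring (adjusted p = 0.0982) nor without young rats 1, 10 and 11 (0.19) or young rat 10 alone (0.0502). Of 4 sodium-coupled transporters 1 was higher, Slc5a2 (0.16, adjusted p = 0.0489), whose sign also turned (-0.25 as deposited, -0.13 with hybridization controls) and whose call was lost without the 3 rats (0.116), under median centring (0.0807) and without any 1 of 9 rats (0.0635 to 0.103). Of 10 genes of glucose phosphorylation and transporter control 1 was higher and 4 lower, with Hif1a, the oxygen-regulated factor that drives many glycolytic genes, 2.23-fold lower (adjusted p = 0.000272), Arrdc4 and Prkaa2 lower (-0.45 and -0.45) and Prkaa1, a catalytic subunit of the energy sensor AMPK, higher (0.61). Prkaa1 was at 0.36 without the 3 rats and 0.35 as deposited, and on that scale Arrdc4 was at -0.72 and Prkaa2 at -0.81.

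In aged round spermatids 4 of the 44 were higher and 9 lower, where 12.5% of all genes were higher and 12.4% lower. Without young rats 1, 10 and 11 the counts were 1 and 4, and on the deposited scale 19 and 4. Slc2a8 was higher in aged rats here too, at 11.84 ± 0.16 against 11.19 ± 0.32 in young rats (1.57-fold, adjusted p = 0.00486), a difference of 0.65 that was 0.40 without the 3 rats. Ldhb was lower at 8.58 ± 0.11 in aged rats, against 9.11 ± 0.23 in young rats (1.45-fold, 0.0027), a difference of -0.53 that was -0.29 with hybridization controls. Pdk1 was 1.63-fold lower (adjusted p = 0.0161), or -0.71 against -0.45 without the 3 rats. Pdk3 was lower (-0.46), a call lost with hybridization controls (adjusted p = 0.0845). Emb (-0.21), Slc16a6 (-0.26) and Slc2a2 (-0.20) were lower by small steps, none of them called with the values as deposited (adjusted p = 0.463, 0.0897 and 0.318) or with hybridization controls. Without the 3 rats the calls of Emb (0.0528) and Slc2a2 (0.0617) were lost too. Tbc1d4, which holds glucose transporters inside cells until insulin acts, was lower (-0.45) and its relative Tbc1d1 higher (0.20), and both calls were lost without young rats 1, 10 and 11 (adjusted p = 0.0727 and 0.14). Pdha2 (-0.15) and Prkaa1 (-0.17) were lower, but with the values as deposited (0.066 and 0.093) or hybridization controls (0.11 and 0.13) both signs turned, and neither was called under median centring (0.665 and 0.773) or without the 3 rats (0.217 and 0.199). The call of Prkaa1 was also lost without aged rat 10 alone (0.0505).

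Between the cell types 25 of the 44 were higher in round spermatids and 15 lower, where 49.7% of all genes were higher and 38.6% lower. Slc16a6, a relative of the lactate carriers, was 3.24-fold higher in round spermatids (adjusted p = 1.14e-13), as was Hk1, the hexokinase with a sperm-specific form, by 2.34-fold, and Txnip, which promotes the removal of glucose transporters from the membrane, by 2.02-fold. Lower in round spermatids were Ldhb (5.04-fold), Pdhb, a subunit of pyruvate dehydrogenase (5.23-fold), Mpc1, of the mitochondrial pyruvate carrier (2.8-fold), and the chaperones Emb (1.82-fold) and Nptn (1.63-fold). Tbc1d1 (-1.43), Gipc1, which binds the tail of SLC2A1 (-0.75), and Slc2a13 (-0.92) were lower as well, and Slc2a2 (0.55), Slc2a5 (0.41) and Slc5a2 (0.60) were higher. Some of these sizes depend on the scaling: the log2 difference of Txnip was 1.02 but 0.40 to 0.51 under the other 3 scalings, that of Slc2a5 0.16 to 0.28 and that of Slc5a2 0.24 to 0.35. Emb (-0.86) reached -1.45 and Nptn (-0.71) -1.23 with hybridization controls. The group means of Slc2a2 were low (6.83 to 7.52), and those of Slc2a5 were 7.77 to 8.26 and of Slc5a2 7.93 to 8.59. The arrays do not tell whether these 3 genes were expressed in either cell type.

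The age difference of 4 of the 44 was higher in round spermatids than in pachytene spermatocytes and that of 3 lower, where 7.33% and 8.85% of all genes were. Emb (0.69, adjusted p = 0.012), Ldhb (0.80, 0.00811) and Hif1a (0.82, 0.00593) were lower with age by more in pachytene spermatocytes, and Emb was at 1.07 with the values as deposited. Prkaa1 went the other way (-0.72, adjusted p = 0.000572; -0.43 without the 3 rats), and was not called with the values as deposited (0.0922) or with hybridization controls (0.0574). Without the 3 rats the calls of Prkaa2 (adjusted p = 0.0689), Slc2a13 (0.24) and Pdha2 (0.263) were lost.

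**Figure D4:**
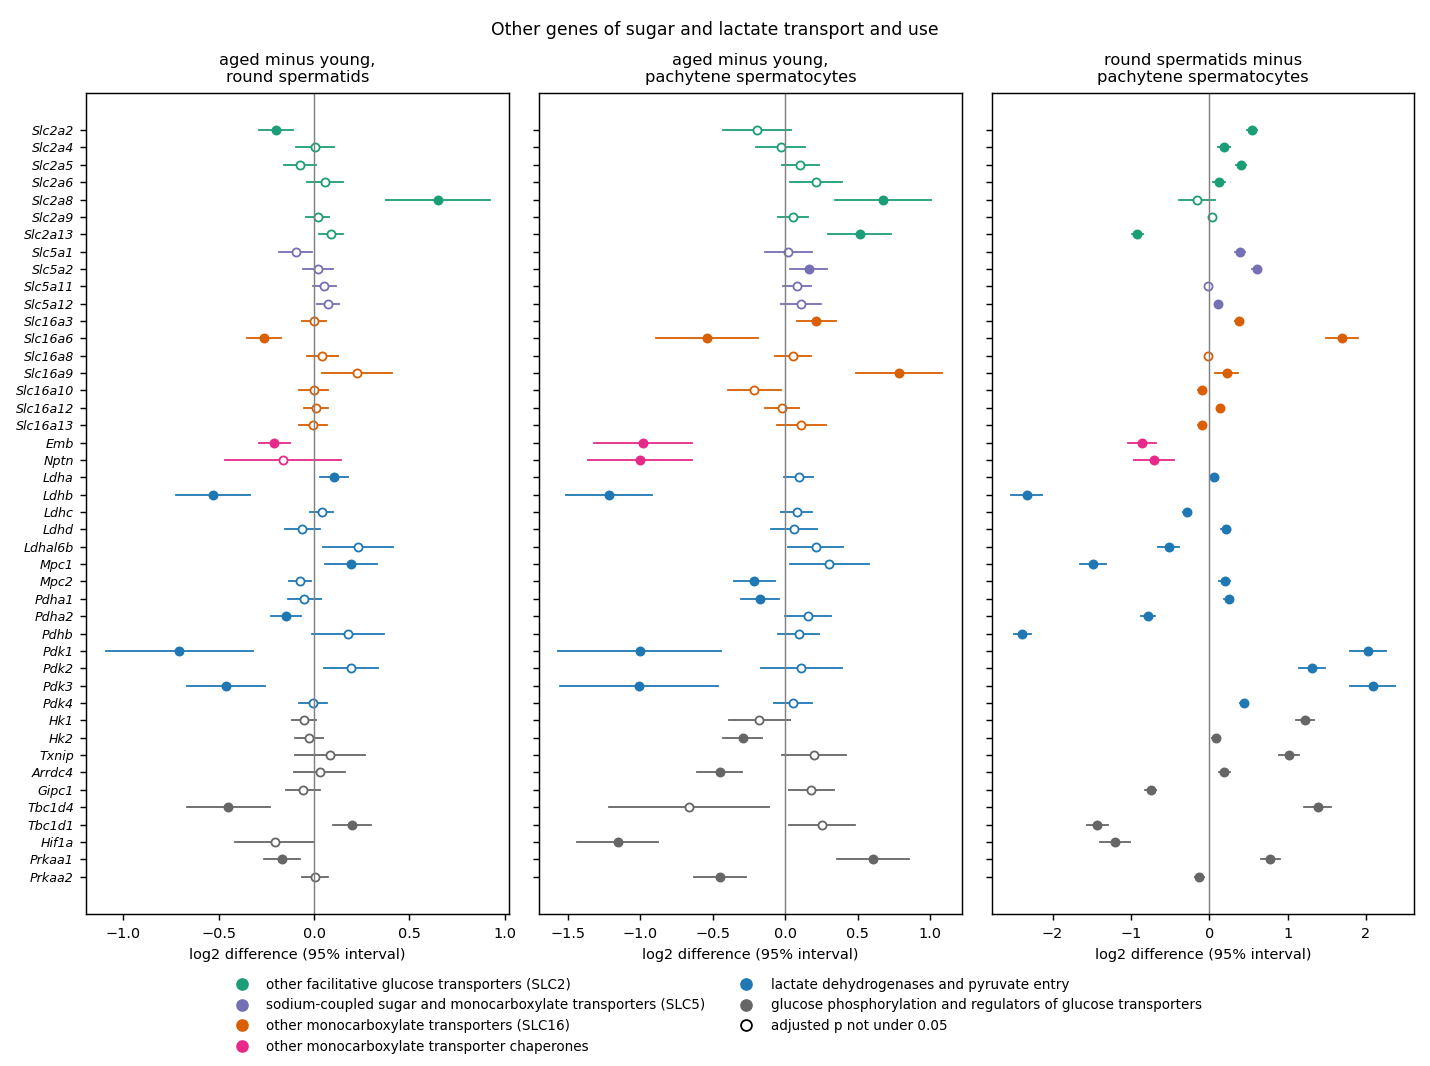
Log2 differences of the 44 measured genes of sugar and lactate transport and use, in round spermatids (aged minus young, left), pachytene spermatocytes (aged minus young, middle) and between the cell types (round spermatids minus pachytene spermatocytes, right). Points are estimates, bars 95% intervals, colours the lists, and open points have an adjusted p not under 0.05. Ldhb lies left of 0 in all 3 panels and Slc16a6 right of 0 between the cell types (1.70).

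The genes whose level followed each transporter most closely over the arrays were found by Pearson's r, as a description with no test. The 24 arrays fall into 2 cell types, and any gene with a similar step between them has a high r, so the values over the 12 pachytene arrays are given too; all arrays share their rats and their normalization. Over 24 arrays Slc2a3 (1372326_at) was closest to Dcaf8, Fyco1 and Echdc1 (r of 0.992 to 0.995), Slc16a1 to Uba6, Ndfip1 and Avl9 (0.991 to 0.992), and Slc16a7 to Fam209, Smc3 and Abhd4 (0.992 to 0.995). The closest genes of Slc2a1 were Tedc2, Slc23a2 and Tmem87a (r of 0.914 to 0.94), and those of Bsg, which hardly varied, Gtf3a, Sry and Dhrs13 (0.814 to 0.831). Over the 12 pachytene arrays Slc2a3 was closest to Tmem97, C3h15orf48 and Trappc2b (0.996 to 0.998), Slc16a1 to Mccc2, Hspd1 and Lratd1 (0.992 to 0.995), and Slc16a7 to Tulp2, Samt3 and Zfp61 (0.997 to 0.998). There Slc2a1 was closest to G0s2, Reep3 and Plk3 (0.874 to 0.908), and Bsg to Tdo2, P2ry12 and Pxdc1 (0.808 to 0.811).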

How the data were processed

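The deposited table holds log2 signals of 31099 probe sets on 24 arrays, per the values themselves, and the sources used here do not name the program with which the authors summarised probes. In the labels' protocols, biotinylated cRNA was hybridized from total RNA of gradient fractions, and the replicates are separate rats, so their number limits the precision. Symbols came from the platform annotation: 20826 probe sets carry 1 symbol, 436 several and 9837 none.

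After 57 control probe sets were left out, 31042 were tested with limma 3.58.1 in R 4.3.3 (lmFit, eBayes, two-sided, Benjamini-Hochberg over all probe sets). Age was tested within each cell type after quantile normalization. For comparisons that span both cell types, an offset of 90.6 was added to linear pachytene values. It was set so that 45 control probe sets matched on average, the absent-transcript control among them. All arrays were then quantile normalized. Alternatives were 3 other scalings (median centring, the values as deposited, and centring on hybridization controls, all with the offset where both cell types entered), leaving out the 40% dimmest probe sets, each rat in turn or young rats 1, 10 and 11, a variance trend with robust estimation, no offset, and the rat or its number as a block. Both fractions of a rat share a number and age in the labels. Their deviations from group means correlated at -0.08 to 0.38, and 2 of 12 rats matched their own partner best.

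A gene with several probe sets was represented by its brightest one in lists. In each list and comparison up to 4 called genes with the smallest p were eligible for naming. Ldhc, and Pdk1, Pdk2 and Pdk3 between the cell types, were named after their values were seen. The genes, lists, tests and alternatives were chosen with earlier results of these arrays known.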

Additional observations from a re-analysis of the deposited data

Results flagged for a closer look

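For 2 probe sets the age difference in round spermatids differed from that in pachytene spermatocytes by a test of the difference itself. For Slc16a7 (1370609_a_at) the age difference was -0.19 in round spermatids and -1.56 in pachytene spermatocytes on the scale of each cell type, and the difference over all arrays was 1.51 (limma, adjusted p = 0.0151), or 0.75 without young rats 1, 10 and 11. For Slc2a3 (1372326_at) it was 1.22 in round spermatids and 0.32 in pachytene spermatocytes, and the difference was 0.77 (adjusted p = 0.0331). That call was lost under median centring (0.0771) and without any 1 of 8 of the 12 rats (adjusted p = 0.0503 to 0.0737), and the other Slc2a3 probe set gave -0.44 (adjusted p = 0.441). Whether saturation limited the pachytene signals of 1372326_at was not tested. The 7 transporter probe sets in 4 groups of 6 arrays made 28 sets of values, and by Dixon's criterion 0 of them had a single array far from the other 5. Only these probe sets were looked at in this way.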

How the results depend on the processing

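The 3 scalings moved the whole distribution. The median of all probe sets in the age comparison of pachytene spermatocytes was 0.05 as reported, 0.13 with median centring, -0.24 as deposited and -0.12 with hybridization controls, and the share of calls that were higher was 59.0%, 71.9%, 7.06% and 22.2%. In round spermatids the share was 50.5% as reported, 49.7%, 96.0% and 95.1% under the same scalings, between the cell types 55.1%, 55.2%, 48.3% and 39.996%, and for the difference of the age effect 45.9%, 25.5%, 99.9% and 99.7%. Directions are therefore relative to the distribution of each array.

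Counts over all probe sets moved too. In pachytene spermatocytes 11631 were called, 19153 on the deposited scale and 7656 without young rats 1, 10 and 11. In round spermatids 5316 were called, 17172 on the deposited scale, 8716 with hybridization controls and 1716 without those rats. Between cell types 26419 were called, 16873 without the 40% dimmest probe sets, where fewer were tested. For the difference 4043 were called, 11184 with median centring, 25118 on the deposited scale, 7999 with hybridization controls, 7061 with quantile normalization within each cell type and no offset, 2609 without the 3 rats, and 2294 to 4832 with any 1 rat left out, the lowest without aged rat 8 and the next, 2429, without aged rat 5.

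Of the 7 transporter probe sets, 1 was called higher in aged pachytene spermatocytes, 3 with median centring, 2 as deposited or with hybridization controls, 0 without the 3 rats, and 0 to 2 with 1 rat left out; 2 were called lower, 4 on the deposited scale. In round spermatids 2 were called higher, 1 with median centring, without the 3 rats or with some single rats left out; 1 was called lower, 0 with hybridization controls or without the 3 rats, 2 without the 40% dimmest probe sets and up to 2 with 1 rat left out. Between cell types 3 were called higher, 1 with hybridization controls. For the difference 2 were called higher, 5 on the deposited scale, 4 with hybridization controls and 1 with some single rats left out; 0 were called lower, 1 with median centring.

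Signs that turned, for transporters, were those of Slc2a1 (pachytene age difference -0.39 deposited, -0.27 hybridization controls; difference of the age effect 0.38 and 0.31) and Slc16a1 1380467_at on the deposited scale (-0.25 and 0.29), each called where its sign turned but not as reported. Among the other genes they were those of Slc5a2 (-0.25, -0.13) and Slc16a3 (-0.18, -0.062) in pachytene spermatocytes, Pdha2 (0.066, 0.11) and Prkaa1 (0.093, 0.13) in round spermatids, and Slc2a13 (0.16, 0.092) in the difference, given first as deposited and then with hybridization controls. With median centring Mpc2 turned to 0.16 and Slc16a13, between the cell types, to 0.044. The cause was not tested.

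With the rat as a replicate block no call of a transporter probe set changed between the cell types or in the difference of the age effect; the counts were 26214 (fixed) and 26539 (random) between cell types, and 3796 and 4633 for the difference. Aged and young rats share only the numbers 2, 3 and 10, not animals. A replicate block over the label numbers compares the ages within these numbers only, so it has little power and cannot show whether the age calls hold. It left 367 calls in pachytene spermatocytes and 0 in round spermatids by limma (1500 of 31042 at an unadjusted p under 0.05). In either, 0 transporter probe sets were called higher or lower. Array signals give no detection calls, and the different background of the cell types limits what can be said of dim probe sets.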
